A study of Mus musculus with 2 samples.

Results

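Polycystic kidney disease is caused by mutation of genes whose products work at the primary cilium, at cell junctions or in the endoplasmic reticulum (ER). 9 of them, among the 32227 genes of the matrices, are described here in nuclei of the thick ascending limb (TAL) of the mouse kidney. They were chosen by name for their link to inherited or experimental cystic kidney disease, with earlier results of these data known. Pkd1 and Pkd2 encode the polycystins, Pkhd1 encodes fibrocystin, Bicc1 encodes an RNA-binding protein, Ift88 and Cys1 encode proteins of the cilium, and Ganab, Dnajb11 and Alg9 encode ER proteins that glycosylate or fold membrane proteins.

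The nuclei came from male mice on a C57BL/6 (B6) background, with the genotype labelled WT and an age labelled 12 without a unit. All carried the NKCC2-CreERT2 and INTACT alleles, in which Cre is driven from Slc12a1, the gene of the sodium-potassium-chloride cotransporter NKCC2, and tamoxifen turns on a nuclear-envelope Sun1-sfGFP tag. There was no untreated or diseased group. A superficial strip of the kidney was taken as cortex and the rest as medulla, nuclei were sorted by GFP, and 1 library was made per region, so no difference below has a replicate check and none was tested between samples. Region and library cannot be told apart, and the number of animals behind each library is not given in the sources used here. All intervals are 95% intervals for counting error only.

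The polycystins form a receptor-channel complex in the membrane of the primary cilium, a sensory hair that most tubule cells carry. Fibrocystin is found in the same place. The polycystins mature slowly through the ER, which is why loss of an ER enzyme such as the GANAB subunit of glucosidase II can give a cystic kidney or liver. In recessive disease caused by PKHD1 the cysts arise mainly from collecting ducts, whereas in dominant disease they can arise from any segment, TAL included.

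Nuclei were sorted into classes by raw counts. Nuclei with at least 10 Slc12a1 counts were called macula densa (MD) at Nos1 plus Pappa2 of 3 or more, then TAL-β at Tmem52b of 2 or more, then TAL-γ at Tmem207 plus Gpc5 of 2 or more, and the rest TAL-α. Nuclei with at least 5 counts of Lrp2 plus Cubn and at most 2 of Slc12a1 served as a proximal tubule contrast. The cortical library gave 2824 TAL-α, 1493 TAL-β, 248 TAL-γ, 653 MD and 68 proximal nuclei of 5442, and the medullary library gave 3776, 571, 3542, 78 and 94 of 8121. No barcode was shared by the libraries, and the median depth was 2427 and 2430 counts per nucleus.

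The labels were checked on markers that the rule did not use. Cldn16, the claudin of TAL-β, was at 188 and 250 CPM (the counts of a gene per 1000000 counts of the class) in cortical and medullary TAL-β and at 101 and 60.2 CPM in TAL-α. Ptger3 was at 1207 and 1951 CPM in cortical and medullary TAL-α and at 157 and 354 CPM in TAL-β. Cldn10 was at 216 and 242 CPM in TAL-α and at 116 and 55.8 CPM in TAL-β. TAL-α was the remainder of the rule, with no marker of its own required. With Cldn10 plus Ptger3 of at least 2 required, 1924 of 2824 cortical and 3187 of 3776 medullary TAL-α nuclei were left. Whether the others are TAL-α was not tested. In medullary TAL-γ, Cldn10 was at 211 CPM with Cldn16 at 55.0. The channel gene Kcnj10 was at 109 CPM there, against 13.2 CPM in TAL-α. Cortical TAL-γ held Cldn10 and Cldn16 at nearly equal levels, 156 and 153 CPM, and Cldn10 was also high in proximal nuclei, at 420 and 414 CPM. Kcnj10, at 144 CPM in cortical TAL-γ, was near its cortical TAL-β level of 139 and above 17.8 in TAL-α. Cacnb2, at 92.1 CPM, was also near TAL-β, and Ptger3, at 376 CPM, lay between TAL-β and TAL-α. The identity of this group is therefore unsettled, and it is given only by its values. Ptgs2, a prostaglandin synthase of MD cells, was at 85.8 and 126 CPM in MD and at no more than 4.14 CPM in the other TAL classes. Avpr1a and Oxtr were the other MD markers not used by the rule. Avpr1a had counts in MD, TAL-α and TAL-β of both libraries, and Oxtr was at 0 in every class. Proximal RNA was present in all classes and differed between the libraries. The 9 proximal markers summed to 1849 to 3474 CPM in the cortical TAL classes and to 391 to 603 CPM in the medullary ones. All 9 had counts in every class but medullary MD, where Hnf4a was at 0. In proximal nuclei they summed to 13358 and 10219 CPM. The list includes Lrp2 and Cubn, by which the rule picked proximal nuclei, so their high sum there is set in part by the rule. The part of proximal RNA was tried by leaving nuclei out, and the values that changed most are given with the results. Transcripts of the distal convoluted tubule, the segment after the TAL, also differed between the classes. Its 5 markers summed to 870 CPM in cortical TAL-β, 425 in MD, 177 in TAL-α and 97.0 in TAL-γ, and in the medulla to 584 CPM in TAL-β, 72.3 in MD, 36.8 in TAL-α and 30.5 in TAL-γ. Slc12a3, the defining transporter of that segment, was at 263 and 148 CPM in cortical and medullary TAL-β and at 61.1 and 2.45 CPM in TAL-α, and Pvalb was at 0 in medullary TAL-α, TAL-γ and MD, as was Calb1 in medullary MD.

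Pkhd1 and Bicc1 were by far the most abundant of the 9 genes in counts. All 9 together took 0.643% of all counts in cortical TAL-α, 0.707% in TAL-β and 0.390% in MD, and in the medulla 0.912% in TAL-α, 0.953% in TAL-β, 1.02% in TAL-γ and 0.372% in MD. Pkhd1 ranked from 4 to 7 among all genes by CPM in TAL-α, TAL-β and TAL-γ of both libraries, and in MD it ranked 15 in cortex and 21 in medulla. Bicc1 ranked between 28 and 71 in the same TAL classes. Pkhd1 spans 560 kb and Bicc1 237 kb, and nuclear RNA holds unspliced transcript, so gene length may add to counts. Its part in these levels was not tested. Per 100 kb of gene span the order changed, and in cortical TAL-α the level was 936 for Cys1, 823 for Pkhd1, 564 for Pkd2, 484 for Bicc1, 437 for Ganab, 146 for Dnajb11, 121 for Pkd1, 59.3 for Ift88 and 35.2 for Alg9, all in CPM per 100 kb.

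**Figure D1:**
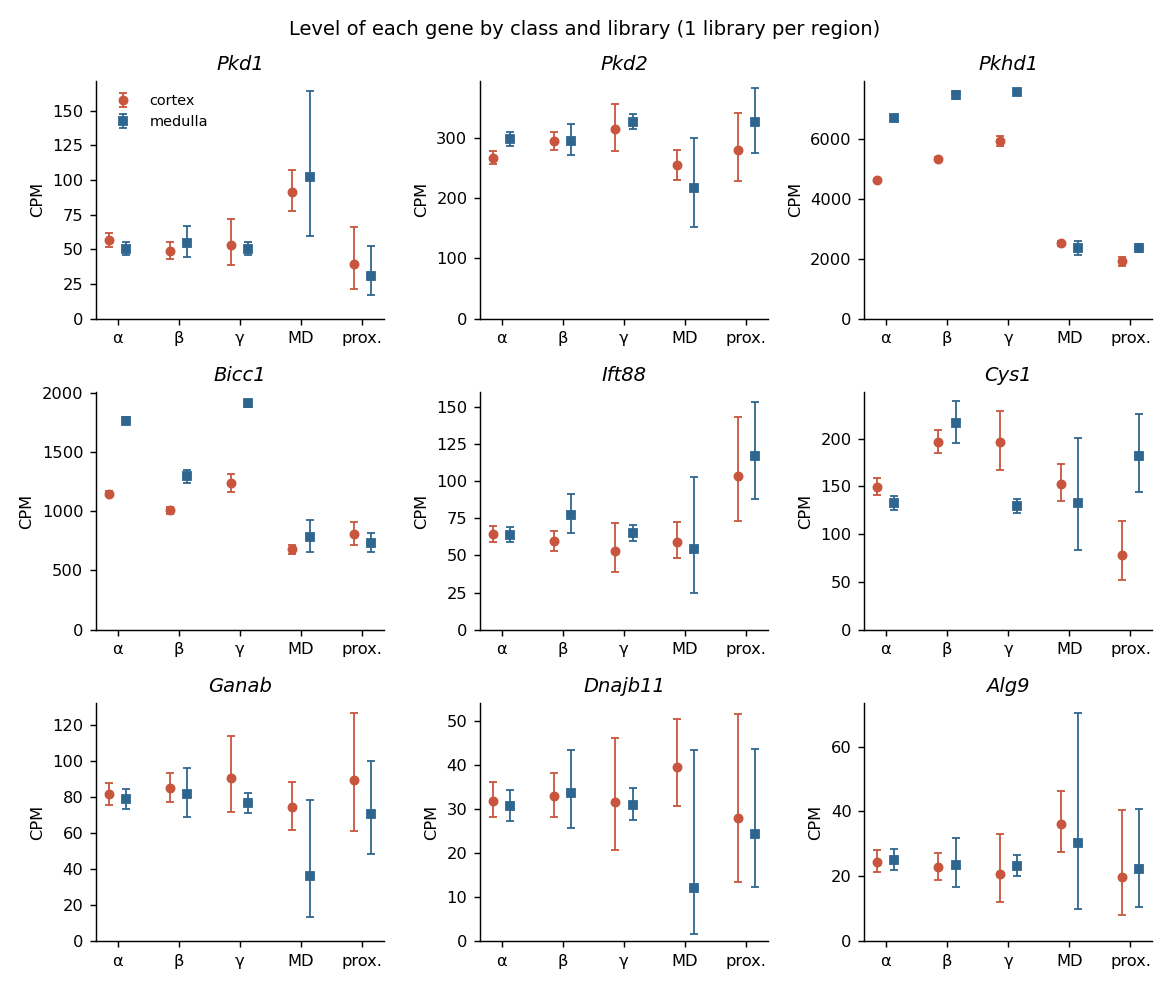
CPM of each of the 9 genes, each on its own linear axis from 0, in TAL-α, TAL-β, TAL-γ, MD and proximal nuclei (prox.) of the cortical (circles) and the medullary (squares) library, with 95% Poisson intervals as bars. MD is lowest of the TAL groups for Pkhd1 (2512 and 2349 CPM) and Bicc1 (677 and 783 CPM) and highest for Pkd1 (91.2 and 102 CPM).

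Fibrocystin, the product of Pkhd1, is a large membrane protein of cilia and apical membranes. Pkhd1 lies at chr1:20128003-20688288 on the minus strand (GRCm39, GENCODE M39). Its promoter is shown for contrast with that of Pkd1, a member whose level in MD differed in the other direction. A link between promoter letters and these levels was not tested. The RefSeq window chr1:20618008-20618307 (GRCm38, minus strand) runs from 250 bases before to 50 bases after the transcription start, and is printed without capitals since it held 0 copies of the GC box GGGCGG on either strand.
Pkhd1: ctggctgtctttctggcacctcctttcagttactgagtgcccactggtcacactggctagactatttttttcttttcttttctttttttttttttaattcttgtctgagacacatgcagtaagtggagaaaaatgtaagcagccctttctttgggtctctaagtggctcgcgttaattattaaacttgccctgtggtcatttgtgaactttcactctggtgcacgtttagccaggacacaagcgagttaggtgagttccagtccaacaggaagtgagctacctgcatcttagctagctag
Its GC content was 43.3%, below the median of 52.7% over 32851 such windows. A match of letters, or the lack of one, is a description and says nothing of whether a factor binds there.

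Pkhd1 was at 4611 CPM in cortical TAL-α, 5324 in TAL-β, 5915 in TAL-γ and 2512 in MD. In the medulla it was at 6682 CPM in TAL-α, 7456 in TAL-β, 7569 in TAL-γ and 2349 in MD. MD stood lowest in both libraries and the medullary TAL classes stood above the cortical ones. Along this order from medullary TAL-γ down to medullary MD, only 2 neighbouring pairs did not differ beyond counting error, which were medullary TAL-γ and TAL-β (ratio 1.02, 0.996 to 1.03) and the MD groups of the 2 libraries (1.07, 0.964 to 1.19). The MD over TAL-α ratio of Pkhd1 was 0.545 in the cortex (0.527 to 0.562) and 0.352 in the medulla (0.317 to 0.388). TAL-β exceeded TAL-α by smaller ratios, 1.16 in the cortex (1.14 to 1.17) and 1.12 in the medulla (1.10 to 1.14).

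The lower MD level was seen in the median nucleus but not in every nucleus. The 95th percentile of Pkhd1 counts per nucleus was 25 in both cortical MD and cortical TAL-α. The median nucleus held 12 Pkhd1 counts in cortical TAL-α, 17 in TAL-β and 4 in MD, and in the medulla 16, 22 and 3. MD nuclei were shallower, with a median of 1883 counts in the cortex against 2425 in TAL-α, so each nucleus was also thinned to 1000 counts, which left out 18 medullary TAL-α and 5 medullary TAL-γ nuclei below that depth. The thinned median was then 5 in cortical TAL-α, 5 in TAL-β and 2 in MD, and in the medulla 7, 7 and 2. TAL-β nuclei were deeper than TAL-α nuclei, with medians of 2668 and 2780 counts against 2425 and 2404. Their thinned Pkhd1 medians were therefore level with those of TAL-α. The thinned 95th percentile was 10 in cortical TAL-α and 6 in cortical MD. At most 2 Pkhd1 counts were left in 63.9% of cortical and 68.0% of medullary MD nuclei, against 21.5% and 6.44% of TAL-α nuclei. The share of nuclei with any Pkhd1 count was 99.3% in cortical TAL-α and 93.9% in MD before thinning, and 96.8% and 82.8% after it. Proximal nuclei gave 98.5% before and 83.7% after thinning at a median depth of 3711 counts, so the MD share lay at the proximal level. No class here is known to lack Pkhd1, and these shares are given beside the levels and not in their place.

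**Figure D2:**
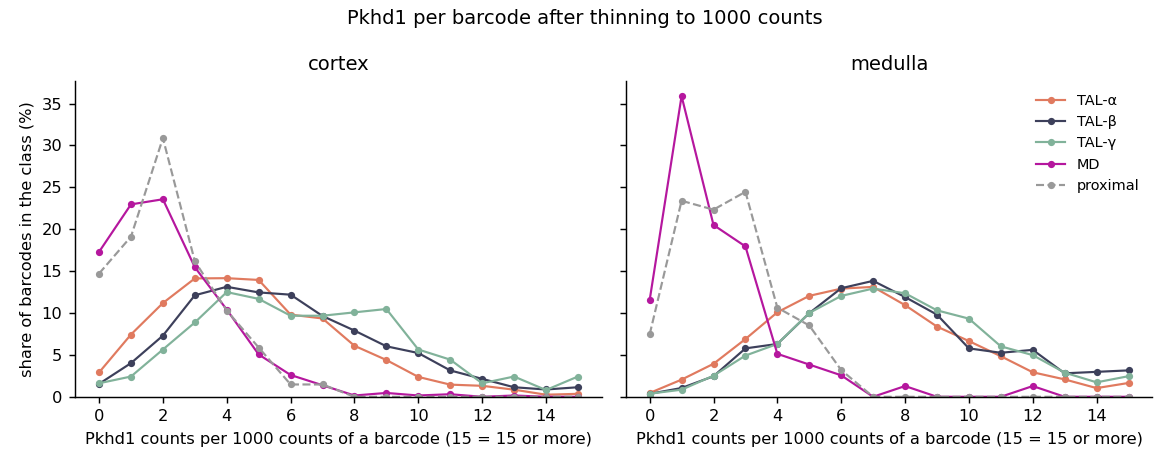
Share of nuclei (%) holding each number of Pkhd1 counts after thinning to 1000 counts per nucleus, by class, in the cortical and the medullary library, with 15 standing for 15 or more. MD and proximal nuclei peak at 1 to 3 counts in both libraries, while TAL-α, TAL-β and TAL-γ peak between 3 and 7.

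Within MD, Pkhd1 differed little with the strength of the MD markers in the cortex. It was at 2592 CPM (2474 to 2714) in the 263 cortical nuclei at 3 to 5 counts of Nos1 plus Pappa2. In the 211 at 6 to 10 it was at 2478 CPM (2348 to 2614). In the 179 above 10 it was at 2421 CPM (2275 to 2574), and these intervals overlapped. In the medulla it was at 2697 CPM (2311 to 3129) in 30 nuclei, 2212 CPM in 25 and 2043 CPM (1667 to 2477) in 23 over the same ranges, and the first and the last of these intervals overlapped. It varied more with the deposited clusters. The 537 cortical MD nuclei inside the cluster with the largest MD share stood at 1879 CPM (1794 to 1966), and the 116 outside it at 3448 CPM. Those 116 were deeper on average and held 2319 of the 4188 Pkhd1 counts of cortical MD, so they raise its summed level. Whether they are mixtures of cells was not tested. With only nuclei of 1500 to 5000 counts, the cortical MD over TAL-α ratio of Pkhd1 was 0.446. In the medulla the 71 nuclei inside stood at 1894 CPM (1673 to 2137) and the 7 outside at 4725 CPM. The MD nuclei inside these clusters therefore had like levels in both libraries. The clusters were made from the same counts, Pkhd1 among them, so this is a description.

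Bicc1 encodes a KH-domain protein that binds mRNAs and is mutated in the cystic jcpk and bpk mice. The gene is at chr10:70758662-70996002 on the minus strand, and shares 17535 bases with Gm48025 on the same strand, which had 3628 counts in the TAL classes. Bicc1 was at 1148 CPM in cortical TAL-α, 1007 in TAL-β, 1236 in TAL-γ and 677 in MD, and in the medulla at 1764, 1295, 1910 and 783 CPM. It was lowest in MD, as Pkhd1 was, but lower in TAL-β than in TAL-α, where Pkhd1 was higher. The TAL-β over TAL-α ratio of Bicc1 was 0.878 in the cortex (0.848 to 0.908) and 0.734 in the medulla (0.703 to 0.767). TAL-β also held more transcripts of the distal convoluted tubule than TAL-α, and with nuclei holding a Slc12a3 count left out, a choice made after the data were seen, these Bicc1 ratios were 0.880 and 0.727. Medullary TAL-γ stood at 1.48 times TAL-β (1.41 to 1.54). The MD over TAL-α ratio was 0.590 in the cortex (0.554 to 0.628) and 0.444 in the medulla (0.371 to 0.528). The order of levels had 2 neighbouring pairs within counting error, medullary TAL-β with cortical TAL-γ and the MD groups of the 2 libraries. The share of nuclei with a Bicc1 count was 65.9% in cortical TAL-α and 42.4% in MD after thinning (89.8% and 63.7% before), and 52.9% in proximal nuclei (88.2% before). The MD share thus lay below the proximal one, and proximal nuclei are not known to lack Bicc1.

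The 26 deposited clusters, 13 per library, regroup the same nuclei by the same counts, Pkhd1 and Bicc1 among them, and are a description only. Those led by MD were low in both genes. Clusters led by TAL-α and by TAL-β overlapped. In the cortex Pkhd1 ranged from 1841 CPM in cluster 3, of which 75.1% were MD nuclei, to 7582 CPM in cluster 2, of which 71.3% were TAL-β. Cortical clusters 1, 5 and 8, with 98.8%, 92.6% and 92.7% TAL-α nuclei, stood at 5182, 6509 and 3451 CPM of Pkhd1, so that TAL-α was not uniform. The same 3 clusters had 1240, 1633 and 1039 CPM of Bicc1. Cortical cluster 4, of which 75.5% were TAL-β, stood at 5434 CPM of Pkhd1, below cluster 5, and at 982 CPM of Bicc1. Cortical cluster 2 had 1148 CPM of Bicc1, above cluster 8. The order of TAL-β and TAL-α thus did not hold for every pair of clusters. In the medulla the highest Bicc1 was 2452 CPM in cluster 4, where 64.2% of nuclei were TAL-α. Medullary cluster 6, of which 59.0% were TAL-β, paired high Pkhd1, 7724 CPM, with low Bicc1, 1306 CPM. Cortical clusters 6 and 7 held many proximal transcripts, with 7616 and 5566 counts per nucleus on average against 2575 in cluster 1, and stood at 3139 and 3338 CPM of Pkhd1.

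**Figure D3:**
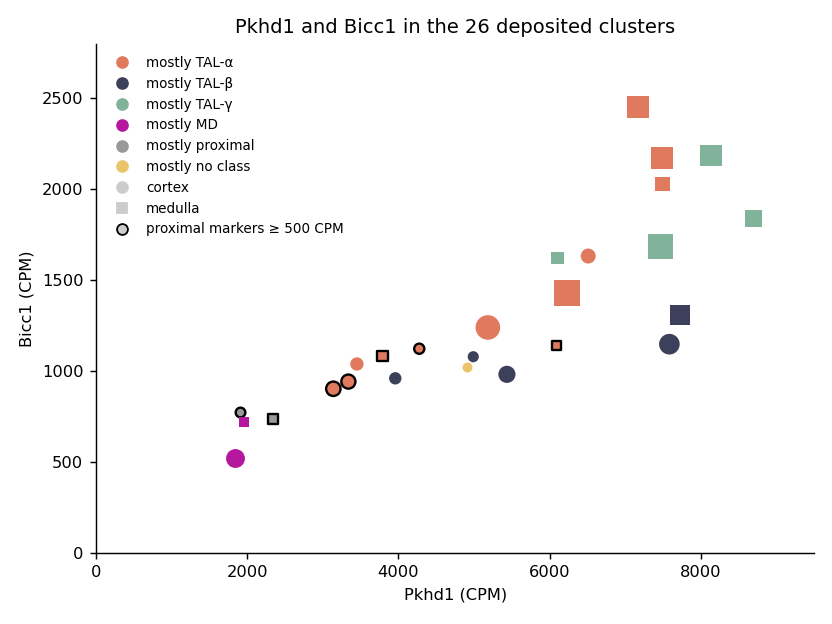
Pkhd1 against Bicc1 (both in CPM) in the 26 deposited clusters, coloured by the largest class, with circles for cortex, squares for medulla, larger marks for clusters with more nuclei, and black outlines for clusters with proximal markers at 500 CPM or more. The MD clusters, at 1841 and 1955 CPM of Pkhd1, and the proximal clusters, at 1904 and 2336 CPM, lie lowest in both genes, and clusters led by TAL-β lie below those led by TAL-α in Bicc1 at like Pkhd1, as at 7724 CPM of Pkhd1 with 1306 CPM of Bicc1.

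Polycystin-1, encoded by Pkd1, is the large receptor-like partner of the complex, and most dominant disease follows from its loss. Pkd1 lies at chr17:24768808-24815482 on the plus strand and its end overlaps Tsc2 on the opposite strand by 700 bases. Whether the counting used strand is not given in the sources used here, so a part of the Pkd1 counts may belong to Tsc2. The Pkd1 promoter is shown for contrast with that of Pkhd1. In the RefSeq window chr17:24549700-24549999 (GRCm38, plus strand) capitals mark the GC box GGGCGG, read on either strand.
Pkd1: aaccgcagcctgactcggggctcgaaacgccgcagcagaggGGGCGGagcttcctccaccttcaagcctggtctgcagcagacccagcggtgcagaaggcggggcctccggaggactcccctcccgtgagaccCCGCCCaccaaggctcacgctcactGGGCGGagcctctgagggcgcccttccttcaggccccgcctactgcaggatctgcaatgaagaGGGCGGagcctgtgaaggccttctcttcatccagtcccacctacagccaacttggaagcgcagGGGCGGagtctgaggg
The window held 5 GC boxes and its GC content was 66.7%, against 43.3% for Pkhd1 and a median of 52.7% over all windows. The GC box occurred in 35.7% of all windows. Among the other members with a window, Ganab held 2 copies and Dnajb11 1, at a GC content of 54.7% and 66.0%. Pkd2, Ift88, Cys1 and Alg9 held 0 copies. Alg9, which like Pkd1 was above TAL-α in cortical MD (ratio 1.47), had a GC content of 46.7%, below the median. Bicc1, low in MD like Pkhd1, had no window, and a link of GC content to these levels was not tested.

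Pkd1 went the other way from Pkhd1 in MD. It was at 56.5 CPM in cortical TAL-α, 48.8 in TAL-β, 53.3 in TAL-γ and 91.2 in MD. In the medulla it was at 50.2, 54.7, 50.1 and 102 CPM, the last from 17 counts. Both MD groups lay above all other TAL groups, which were within counting error of their neighbours in the order of levels. The MD over TAL-α ratio was 1.61 in the cortex (1.33 to 1.94) and 2.04 in the medulla (1.18 to 3.3). Inside the cluster with the largest MD share Pkd1 was at 97.5 CPM in the cortex (79.1 to 119) and 93.3 CPM in the medulla (49.7 to 160). By marker strength, cortical MD held Pkd1 at 91.6 CPM at 3 to 5 counts of Nos1 plus Pappa2, 108 CPM at 6 to 10 and 68.8 CPM (46.1 to 98.8) above 10, so the interval of the strongest range held the TAL-α level of 56.5 CPM. After thinning, 9.11% of cortical MD nuclei and 5.6% of TAL-α nuclei held a Pkd1 count, against 4.13% of proximal nuclei (19.8%, 14.1% and 19.1% before thinning).

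Polycystin-2, encoded by Pkd2 at chr5:104607240-104654573 on the plus strand, is the channel partner. Pkd2 varied least among the more abundant members. It was at 267 CPM in cortical TAL-α, 294 in TAL-β, 315 in TAL-γ and 254 in MD, and at 298, 295, 327 and 217 CPM in the same medullary classes. The highest of the 8 groups was 1.51 times the lowest. Medullary TAL-γ stood above TAL-α by a ratio of 1.10 (1.04 to 1.16), and the MD over TAL-α ratio was 0.952 in the cortex (0.856 to 1.06) and 0.728 in the medulla (0.509 to 1.01), both intervals holding 1. Pkd1 and Pkd2, whose products act together, therefore did not share a pattern between MD and TAL-α.

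Cystin, encoded by Cys1, is a lipid-anchored protein of the ciliary membrane and is lost in the cpk mouse. Cys1 lies at chr12:24715832-24731812 on the minus strand. Its RefSeq window chr12:24681746-24682045 (GRCm38, minus strand) is shown because Cys1 was the member that most set TAL-β apart. Neither the GC box nor the X-box half-site described under Ift88 was present in it, and its GC content was 59.0%.
Cys1: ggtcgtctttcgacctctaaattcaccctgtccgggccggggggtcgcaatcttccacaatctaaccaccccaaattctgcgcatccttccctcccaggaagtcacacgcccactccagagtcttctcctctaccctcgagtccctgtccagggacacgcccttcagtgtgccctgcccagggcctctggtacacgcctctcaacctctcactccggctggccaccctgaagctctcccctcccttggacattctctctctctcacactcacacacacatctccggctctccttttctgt
Cys1 was at 150 CPM in cortical TAL-α, 196 in TAL-β, 196 in TAL-γ and 153 in MD. In the medulla it was at 132 CPM in TAL-α, 216 in TAL-β, 129 in TAL-γ and 133 in MD. TAL-β was above TAL-α in both libraries and medullary TAL-γ was level with TAL-α. The TAL-β over TAL-α ratio was 1.31 in the cortex (1.21 to 1.43) and 1.64 in the medulla (1.46 to 1.84), and TAL-γ stood at 0.597 times TAL-β in the medulla (0.532 to 0.672). With nuclei holding a Slc12a3 count left out, also chosen after the data were seen, the TAL-β over TAL-α ratio of Cys1 was 1.33 in the cortex and 1.66 in the medulla, as large as with them. The cortical TAL-γ group, of unsettled identity, had the TAL-β level of Cys1. In the order of levels, only the step from cortical TAL-β to cortical MD exceeded counting error (1.28, 1.12 to 1.48). The clusters richest in Cys1 were cortical cluster 2 at 242 CPM and medullary cluster 6 at 233 CPM, both led by TAL-β. After thinning, 19.6% of medullary TAL-β nuclei held a Cys1 count and 12.0% of TAL-α nuclei, against 17.1% of proximal nuclei (44.8%, 26.5% and 56.4% before), so that in the medulla the proximal class was no empty background for Cys1.

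Ift88 encodes a core part of the intraflagellar transport particle, which builds the cilium, and its hypomorphic allele gives the cystic orpk mouse. The gene lies at chr14:57649273-57757622 on the plus strand. Ift88 was at 64.3 CPM in cortical TAL-α, 59.5 in TAL-β, 53.3 in TAL-γ and 59.4 in MD, and at 64.0, 77.4, 64.8 and 54.2 CPM in the medulla. Each neighbouring pair in this order was within counting error and the highest group was 1.45 times the lowest. Between the regions, Ift88 was 1.3 times higher in medullary than in cortical TAL-β (1.06 to 1.60) and 0.995 times in TAL-α (0.883 to 1.12). The RFX-type X-box half-site GTTGCC, sought on both strands and present in 12.5% of all windows, matched the Ift88 promoter window and no other member's.

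The ER members were low and showed few differences. GANAB is the catalytic subunit of glucosidase II, DNAJB11 is a co-chaperone of BiP, and ALG9 is a mannosyltransferase that builds the sugar tree for N-glycosylation. Ganab (chr19:8875417-8894107, plus strand) ranged from 74.4 to 90.9 CPM over the cortical classes and from 76.6 to 82.0 CPM over the medullary TAL-α, TAL-β and TAL-γ. Dnajb11 (chr16:22676587-22698384, plus strand) ranged from 31.5 to 39.6 CPM in the cortex and from 30.6 to 33.6 CPM in the same medullary classes. Medullary MD held only 6 Ganab counts and 2 Dnajb11 counts, with MD over TAL-α ratios of 0.459 (0.168 to 1.00) and 0.394 (0.0475 to 1.44), too few counts to show a difference. Alg9 (chr9:50686227-50755784, plus strand, with 594 bases shared with Cfap68 on the opposite strand) was at 24.5 CPM in cortical TAL-α, 22.8 in TAL-β and 36.0 in MD, and at 25.0, 23.3 and 30.1 CPM in the medulla. The MD over TAL-α ratio of Alg9 was 1.47 in the cortex (1.08 to 1.97), under the 1.5-fold mark, and 1.21 in the medulla (0.388 to 2.86) from 5 counts. The cortical ratio ranged from 1.3 to 1.64 over the alternatives and was past the mark with the highest Scrublet (doublet) scores left out, with the mean of CPM per nucleus or with the proximal profile subtracted. Within the cortex Alg9 varied with MD marker strength without an order, at 27.2, 53.0 and 28.5 CPM from the weakest to the strongest marker counts.

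To set the members against the transcriptome, a gene was counted when 2 groups differed by at least 1.5-fold either way, among genes with at least 50 counts in the groups together. All 9 members reached that minimum in each comparison counted. Between TAL-β and TAL-α, 0 of 9 members were past the fold in the cortex, where 9.59% of 12244 genes were, and 1 of 9, Cys1, in the medulla, where 14.9% of 11129 genes were. Between TAL-γ and TAL-α of the medulla 0 of 9 were past it, against 7.79% of genes, and between TAL-γ and TAL-β 1 of 9, Cys1 again, against 18.7%. MD and TAL-α of the cortex differed more, with 3 of 9 members past the fold, Pkd1 higher and Pkhd1 and Bicc1 lower, where 24.3% of genes were. The median log2 ratio of the members there was -0.07, against 0.03 over all genes. Between MD and TAL-α of the medulla 5 of 9 were past it, Pkd1 higher and Pkhd1, Bicc1, Ganab and Dnajb11 lower, where 52.3% of 10775 genes were, and the 78 MD nuclei left Ganab and Dnajb11 with the few counts given above. In each of these comparisons the members' share was near the background share or below it.

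**Figure D4:**
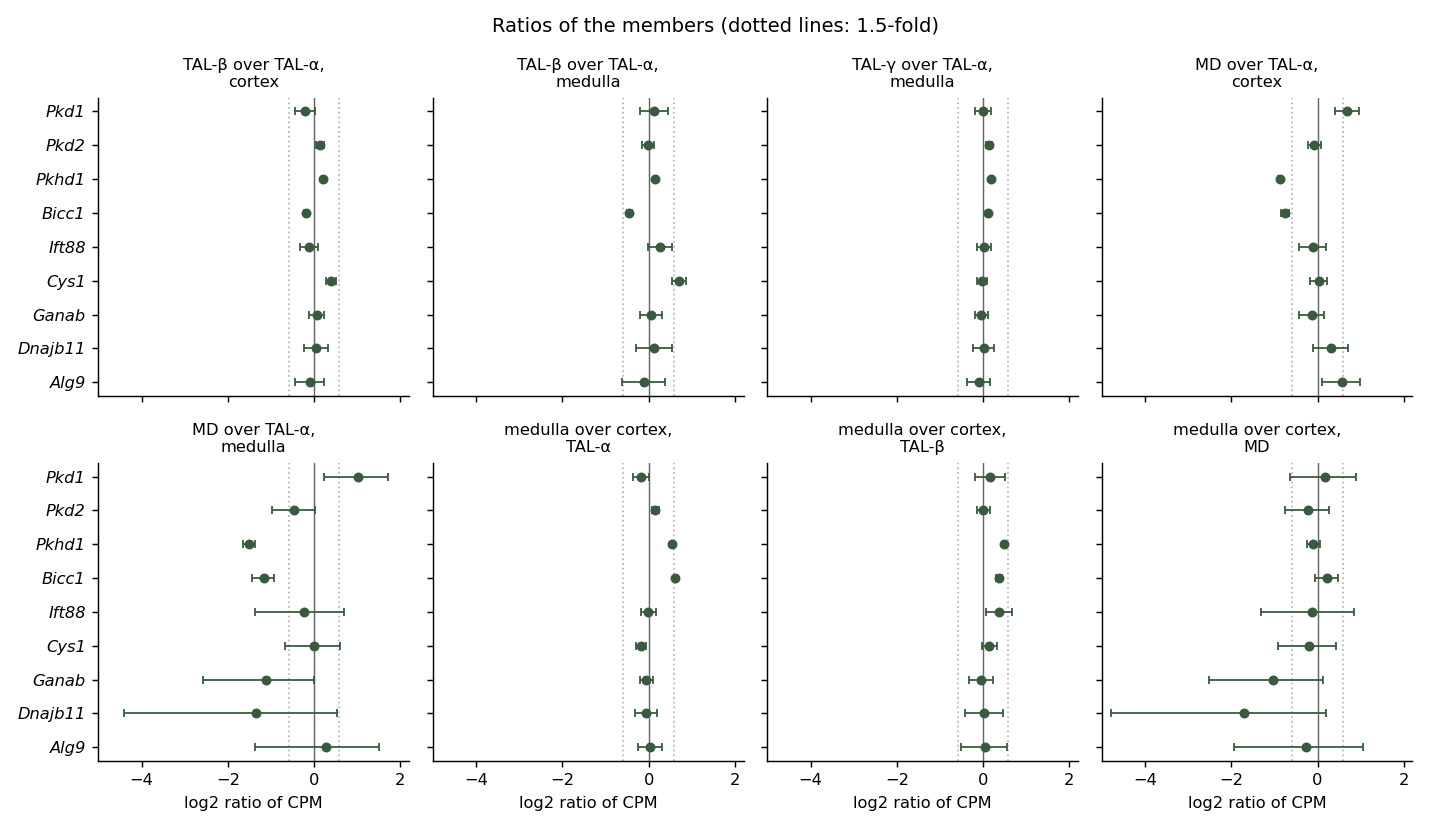
Log2 ratio of CPM for each of the 9 genes in the comparisons between classes and between libraries, with 95% counting intervals as bars and the 1.5-fold marks drawn as lines. Pkhd1 and Bicc1 lie below 0 and Pkd1 above 0 in MD over TAL-α, at -0.88, -0.76 and 0.69 in the cortex, and Cys1 lies at 0.71 in medullary TAL-β over TAL-α.

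Between the libraries, Pkhd1 and Bicc1 were higher in the medulla. The medulla over cortex ratio in TAL-α was 1.45 for Pkhd1 (1.43 to 1.47) and 1.54 for Bicc1 (1.5 to 1.58), and in TAL-β it was 1.40 (1.37 to 1.43) and 1.29 (1.22 to 1.35). In MD the ratio was 0.935 for Pkhd1 (0.841 to 1.04) and 1.16 for Bicc1 (0.957 to 1.39). The other 7 members lay between 0.884 and 1.12 in TAL-α. Only Bicc1 was past 1.5-fold in TAL-α, 1 of 9 members against 21.3% of 12585 genes, and 0 of 9 were in TAL-β, against 19.8% of 10489 genes. Proximal transcripts, which carry less Pkhd1, moved with this split. Their matched share of counts was 19.5% in cortical TAL-α and 4.48% in medullary TAL-α, and 23.9% and 6.72% in TAL-β. Leaving out clusters rich in proximal markers, a choice made after the data were seen, took the Pkhd1 ratio to 1.34 in TAL-α and 1.22 in TAL-β, and subtracting the proximal profile gave 1.31 and 1.22. The Bicc1 ratio in TAL-α was then 1.49 without those clusters, below the 1.5-fold mark. With 1 library per region, no test of the regional difference was possible.

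Against proximal nuclei the members differed in direction. Proximal nuclei held Pkhd1 at 1911 CPM (cortex) and 2351 CPM (medulla), 0.415 (0.384 to 0.447) and 0.352 (0.331 to 0.374) times TAL-α. Umod, the gene of the TAL protein uromodulin, was at 75.7 and 77.5 CPM in the same proximal nuclei against 3804 and 4169 CPM in TAL-α. Pkhd1 thus stood much nearer to its TAL-α level in proximal nuclei than Umod did. Proximal nuclei were picked at no more than 2 Slc12a1 counts, which may in part set how low a TAL transcript such as Umod is there. Bicc1 was at 807 and 731 CPM in proximal nuclei, 0.703 (0.623 to 0.791) and 0.414 (0.370 to 0.462) times TAL-α. Ift88 was the member that was higher there in both libraries, at 104 and 117 CPM, 1.61 (1.12 to 2.25) and 1.83 (1.36 to 2.43) times TAL-α. Pkd1 was at 39.2 and 31.0 CPM from 14 counts each, with intervals of the ratio that held 1. Past 1.5-fold were 3 of 9 members in the cortex, Ift88 higher and Pkhd1 and Cys1 lower, where 52.6% of genes were. In the medulla 4 of 9 were, Ift88 higher and Pkhd1, Bicc1 and Pkd1 lower, where 57.7% of genes were. With clusters rich in proximal markers left out, a choice made after the data were seen, the cortical count was 5 of 9, Pkd1 and Bicc1 joining on the lower side, where 53.9% of genes were past the fold. Pkd2 differed little, with ratios of 1.05 (0.850 to 1.28) and 1.09 (0.919 to 1.29).

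Wider lists of cystic and ciliary genes gave the setting for the 9. Of 22 ciliopathy and nephronophthisis genes, 1 was higher and 1 lower past 1.5-fold in cortical TAL-β over TAL-α, where 9.59% of all genes were past it, 1 and 3 in the medulla, where 14.9% were, and 1 and 3 in cortical MD over TAL-α, where 24.3% were. Of 26 intraflagellar transport and cilium genes with enough counts, 0 were past the fold in cortical TAL-β over TAL-α, 1 was lower in the medulla, and 1 was higher and 2 lower in MD. Of 17 ER glycoprotein and polycystic liver genes, 2 were higher and 1 lower in MD. Of 13 other cystic kidney genes with enough counts among 16, 2 were higher and 5 lower in MD over TAL-α, beside 24.3% of all genes past the fold. The median log2 ratio of these 4 lists in MD over TAL-α was 0.19, 0.07, 0.05 and -0.07, against 0.03 over all genes. In TAL-γ over TAL-α 1 ciliopathy gene was higher and 1 lower of 22, 2 other cystic genes were lower of 13, and 0 of 27 cilium genes and 0 of 18 ER genes were past the fold, beside 7.79% of all genes.

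Some genes of these lists differed by more than the 9 members did. Rpgrip1l, which encodes a protein of the ciliary transition zone, was at 37.7 CPM in cortical TAL-α and 72.5 in TAL-β, and at 55.3, 114 and 94.2 CPM in medullary TAL-α, TAL-β and TAL-γ. The TAL-β over TAL-α ratio of Rpgrip1l was 1.92 (1.65 to 2.25) in the cortex and 2.06 (1.74 to 2.43) in the medulla, and TAL-γ over TAL-α was 1.70 (1.52 to 1.90). Dcdc2a, a ciliary doublecortin family gene, was low in TAL-β, at 8.42 CPM against 16.6 in cortical TAL-α, and stood at 58.2 CPM in cortical MD, 3.51 times TAL-α (2.67 to 4.60). In MD the gene furthest below TAL-α was Umod, whose mutation gives a dominant tubulointerstitial disease, at 718 CPM against 3804 CPM, a ratio of 0.189 (0.178 to 0.200). Glis2, a nephronophthisis gene, and Glis3, a cystic gene of the same zinc-finger family, were at 0.282 (0.219 to 0.359) and 0.483 (0.458 to 0.509) times TAL-α in MD. Prkcsh, the other subunit of glucosidase II, was at 0.297 times TAL-α (0.146 to 0.544) from 11 counts in MD, while Ganab, its partner, was at 0.911 (0.746 to 1.11). Bbs1, Pkd2l2 and Dzip1l were at 0.409, 0.444 and 0.495 times TAL-α in MD. In TAL-γ over TAL-α, Muc1 was at 0.534, Dcdc2a at 0.649 and Tmem218 at 0.659, each from few counts, at most 99 in either group.

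**Figure D5:**
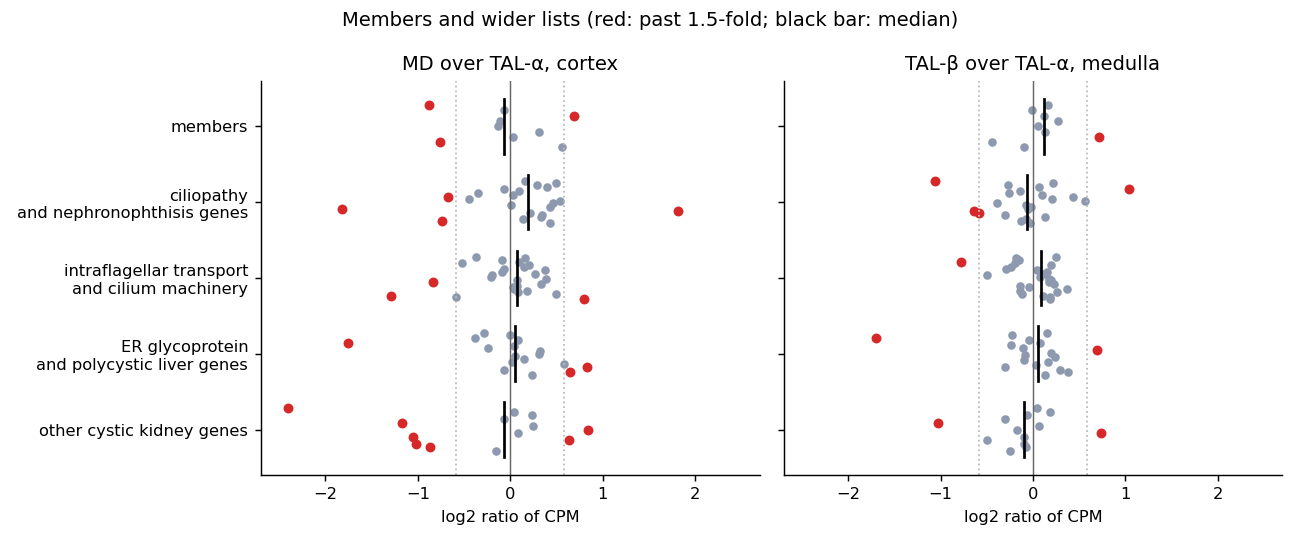
Log2 ratio of CPM for the 9 members and the genes of the 4 wider lists in cortical MD over TAL-α and in medullary TAL-β over TAL-α, 1 point per gene, with dotted lines at 1.5-fold, red for genes past it and black bars for the medians. Most genes lie between the lines, and Umod lies at -2.41, Glis2 at -1.82 and Dcdc2a at 1.81 in MD, and Rpgrip1l at 1.04 in TAL-β.

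The members fell into different patterns across the 8 TAL and MD groups, which share 2 libraries. By Pearson's r of log2 CPM, Pkhd1 and Bicc1 had an r of 0.90 and Pkhd1 and Pkd1 an r of -0.94, with the MD groups at an end of the range of each of these genes, and Bicc1 and Cys1 had an r of -0.13. Among 10994 genes with enough counts, the ones most like Pkhd1 were Dst, Ppargc1a and Plau, with r of 0.995, 0.994 and 0.993, and 493 genes reached 0.9 or more. The genes most like Bicc1 were Bckdhb, Gm11508 and Gal3st1, with r of 0.992, 0.991 and 0.990. Dnajb11, the other member with a wide range over the groups, came closest to Eif2b1, Atmin and Atic, but that range rests on the 2 counts in medullary MD. High values of r were common for Pkhd1, with 493 genes at 0.9 or more, over 8 groups that share libraries and depths. That number varied between members, from 7 genes for Ift88 to 1152 for Ganab, and the cause was not tested. The gene closest to Ift88, named after its value was seen, was Ift52, another gene of the intraflagellar transport particle, at 0.954. Neighbouring Ift88 levels were all within counting error, and medullary MD had 9 counts. This r is therefore a description, and shared regulation of the 2 genes was not tested.

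Barcodes that were not called as nuclei were also summed in each library. Free RNA was not separated in them from nuclei with few counts. Over 433719 such barcodes in the cortex and 436510 in the medulla, Pkhd1 was at 4089 and 6219 CPM, Bicc1 at 907 and 1477, Pkd1 at 53.9 and 51.6 and Cys1 at 157 and 162. These levels of Pkhd1 and Bicc1 were above those in MD and proximal nuclei of the same library and below those in TAL-α. Umod was at 4877 and 7392 CPM in these barcodes, against 718 CPM in cortical MD and 75.7 CPM in cortical proximal nuclei. The part of free RNA in the levels given for MD and proximal nuclei was not tested.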

How the data were processed

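Single nuclei of 2 sorted libraries, cortex and medulla, were used. Per the submitters' methods, reads were aligned to GRCm39 and assigned to cells with PIPseeker, and the processing notes list Seurat 4.4.0 and bcl2fastq. The authors deposited filtered matrices of raw counts per gene and barcode, unfiltered matrices and cluster labels. These matrices are PIPseeker output and precede the study's doublet removal and ambient RNA correction. No doublets were removed here, and an alternative left out the nuclei with the highest Scrublet scores. Whether counting used strand is not given in the sources used here. Columns of samples outside the labels numbered 0.

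Members and gene lists were chosen with earlier results of these data known. Counts were summed per class and library and divided by the class total (CPM). CPM carry exact Poisson intervals, ratios conditional binomial ones and shares Clopper-Pearson ones, all at 95% and for counting error only. Nuclei of 1 library are no replicates, so no p-value is given. A gene was past the fold at 1.5-fold or more either way, with at least 50 counts in the 2 groups. Depth was 16457300 counts in the cortex and 20947211 in the medulla. Genes of the wider lists were named when past the fold in the same direction in both libraries for TAL-β over TAL-α, or in medullary TAL-γ over TAL-α or cortical MD over TAL-α, with at most the 8 largest folds of a comparison. For the 3 members with the widest range over the 8 TAL and MD groups, the 3 genes with the highest Pearson's r of log2(CPM + 1) were named, among genes with at least 200 counts. Of the 9 members, 8 matched a RefSeq promoter window (GRCm38), and Bicc1 did not. The result of 1 gene of the wider lists is not reported here. The ratio script was tested on simulated data. In all, 12 planned and 3 added alternatives were run. Python 3.11.15, scipy 1.17.1, pandas 2.3.3 and scanpy 1.11.5 were used.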

Additional observations from a re-analysis of the deposited data

Results flagged for a closer look

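Cys1 stood on opposite sides of TAL-α in the proximal nuclei of the 2 libraries. The proximal over TAL-α ratio was 0.524 (0.347 to 0.762) in the cortex, from 28 Cys1 counts in 68 proximal nuclei, and 1.37 (1.08 to 1.72) in the medulla, from 82 counts in 94 nuclei. Proximal Cys1 was 78.5 CPM in the cortex and 181 CPM in the medulla, while TAL-α Cys1 was 150 and 132 CPM. The proximal groups also differed in their markers. Slc34a1 was at 5350 CPM in the cortex and 2668 in the medulla, Slc5a2 at 334 and 182 CPM, and Slc7a13 at 799 and 1915 CPM. The 5 markers of the distal convoluted tubule summed to 1006 and 28.8 CPM, with Slc12a3 at 359 and 19.9 CPM, Pvalb at 0 in both and Trpm6 at 0 in the medulla. Their part in the Cys1 difference was not tested. With 1 library per region the difference between these ratios was not tested.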

How the results depend on the processing

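No paired analysis was possible because each region had 1 library. The limits are those of 2 libraries: counting intervals do not cover variation between animals or preparations, medullary MD rests on 78 nuclei, and the proximal contrast on 68 and 94. Of 1368 member ratios recomputed under the alternatives, 1304 stayed within the interval of the reported ratio and 64 left it. For Pkhd1, whose intervals are narrow, 7 of 14 alternatives left it in cortical TAL-β over TAL-α and 7 of 14 in cortical MD over TAL-α. In medulla over cortex, 7 of 14 left it in TAL-α and 8 of 14 in TAL-β. For Bicc1, 6 of 14 left it in cortical MD over TAL-α and 6 of 14 in medulla over cortex TAL-α. None of these Pkhd1 and Bicc1 ratios moved to the other side of 1. The count of members past 1.5-fold changed by over 1.5 times in these cases. In medullary TAL-γ over TAL-β it was 2 with a Tmem52b minimum of 3 (Bicc1 joined). In cortical proximal over TAL-α it was 5 with clusters rich in proximal markers left out (Pkd1 and Bicc1 joined). In medulla over cortex TAL-α it was 2 with median-of-ratios scaling (Pkhd1 joined), and 0 with the proximal profile subtracted, with nuclei of 1500 to 5000 counts, with nuclei at Lrp2 plus Cubn of at least 5 left out, or with the proximal-rich clusters left out. In medulla over cortex TAL-β it was 1 (Ift88) with the mean of CPM per nucleus and 1 with the proximal profile subtracted. Smaller changes were these. In cortical MD over TAL-α (3 as reported) it was 4 with the mean of CPM per nucleus, the proximal profile subtracted or the highest Scrublet scores left out (Alg9 joined each time). In cortical proximal over TAL-α (3) it was 4 with totals without mitochondrial and the 50 most abundant genes (Pkd1 and Bicc1 joined, Ift88 left), with nuclei of 1500 to 5000 counts or with nuclei at Lrp2 plus Cubn of at least 5 left out (Pkd1 joined). In medullary proximal over TAL-α (4) it was 3 with nuclei of 1500 to 5000 counts (Pkd1 left), and median-of-ratios scaling put Cys1 in the place of Pkd1. The subtraction, the cluster removal and the removal of nuclei with a Slc12a3 count, which changed no count, were chosen after seeing the data. The ratio of Pkhd1 ranged over the alternatives from 0.446 to 0.558 for cortical MD over TAL-α, from 1.31 to 1.53 for medulla over cortex TAL-α and from 1.22 to 1.47 for TAL-β. Thinning to 1000 counts moved 84 of 90 shares of nuclei with a count beyond their intervals. The levels were not thinned. They were recomputed without nuclei under 500 genes or above a mitochondrial share of 5%, and 0 of 90 left their intervals. That filter only took medullary TAL-α from 3776 to 3775 nuclei, so it could hardly move a level and says nothing of depth.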
